A study of Rattus norvegicus with 9 samples.

Results

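Claudins are the membrane proteins of the tight junction that decide which ions and how much water pass between the cells of an epithelium. The transcripts of 10 claudins of the renal tubule (Cldn1, Cldn2, Cldn3, Cldn4, Cldn7, Cldn8, Cldn10, Cldn14, Cldn16 and Cldn19) are described here in the renal outer medulla of 9 salt-sensitive rats. They were chosen by gene symbol from 30315 loci. The measured value in the rule, the mean FPKM that would pick a locus where a symbol repeats, was not needed, since each symbol had 1 locus. The set was put together with earlier results of these data known. Of the 10, 9 had a mean of at least 1 FPKM (a fragment count scaled for transcript length and library size) and were tested among 14338 such loci, and Cldn14 was below that level.

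All rats were of the MCW SS strain, whose blood pressure rises on salt, and all had the same surgery. The 3 rats labelled HS_DT received GapmeRs (antisense oligonucleotides that direct RNase H to a transcript) against Dnmt3a and Tet3 into the kidney, at 2 mg/kg each, and ate a diet with 4% NaCl for 7 days. The 3 HS_SCR rats were given a scrambled GapmeR at 4 mg/kg with the same 4% NaCl diet for 7 days. The 3 rats labelled 0.4% salt were collected before GapmeR and high-salt diet, so HS_SCR and 0.4% salt differ in diet, oligonucleotide and time together. Dnmt3a methylates DNA de novo and Tet3 oxidises methylated cytosine, and the design asks what their GapmeRs change on high salt.

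Neither targeted transcript was lower in HS_DT than in HS_SCR. Dnmt3a averaged 9.999 ± 1.17 FPKM in HS_DT, 7.70 ± 2.33 FPKM in HS_SCR and 12.8 ± 0.624 FPKM in 0.4% salt (SD, n = 3 each), and its difference of HS_DT from HS_SCR, 0.37 ± 0.18 (log2 ± SE), had a limma adjusted p of 0.303. Tet3 averaged 8.03 ± 0.465 FPKM in HS_DT, 6.24 ± 1.71 FPKM in HS_SCR and 9.16 ± 0.612 FPKM in 0.4% salt (SD, n = 3 each), with a log2 difference of HS_DT from HS_SCR of 0.34 ± 0.15 and a limma adjusted p of 0.271. HS_DT is used here as a label, and a direction drawn from it is that of the libraries labelled so. Protein and activity of the 2 enzymes were not tested. The sum of FPKM ran from 685349 to 933862 per library. HS_SCR replicate 3 stood apart from the other 8 libraries on the second principal component, at -51.5 against -2.34 to 24.0. The rat numbers fall into a lower series (HS_SCR replicates 1 and 2, HS_DT replicates 1 and 2) and a higher series (the other 5 libraries), so HS_SCR can be set against 0.4% salt within a series through HS_SCR replicate 3 alone.

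The claudins of a tubule segment set its selectivity. Claudin-2 forms cation and water pores in the proximal tubule. Claudin-10 has splice forms that favour anions or cations, and the cation form serves the thick ascending limb. Claudin-16 and claudin-19 together make the path by which the thick ascending limb reabsorbs calcium and magnesium, human mutations in either gene cause renal loss of both ions, and claudin-14 blocks that path. Claudins 3, 4, 7 and 8 line the distal nephron and collecting duct, where claudin-4 and claudin-8 have been tied to chloride passage in mouse collecting duct cells, and claudin-1 is found in the parietal cells of Bowman's capsule and in some tubule cells.

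Of the collecting duct claudins, Cldn7 and Cldn4 rose in HS_SCR relative to 0.4% salt, whereas Cldn3 and Cldn8 did not pass. Cldn19 rose by less, and Cldn7 was the single tested locus that passed as lower in HS_DT than in HS_SCR. In HS_SCR against 0.4% salt, 3 of the 9 tested claudins passed the test (limma, Benjamini-Hochberg adjusted p under 0.05 over all tested loci), all higher. Over all tested loci 13.1% passed in that comparison and 8.2% passed as higher. In HS_DT against HS_SCR, 1 of 9 claudins passed, against 0.00697% of all tested loci, which is Cldn7 itself. That count depended on the fit. Lower in HS_DT were 1332 loci without HS_SCR replicate 3, 110 without HS_SCR replicate 1, 296 with a term for the rat number series and 122 at a minimum mean of 5 FPKM, and several other refits called none. In HS_DT against 0.4% salt, no claudin passed, and the share over all loci was 0%, although 1074 loci had an unadjusted p under 0.05. Group ranges that did not overlap were found for 4 of 9 claudins in HS_SCR against 0.4% salt (33.5% of all loci), 4 of 9 in HS_DT against HS_SCR (21.6%) and 3 of 9 in HS_DT against 0.4% salt (23.8%). The median log2 difference of the 9 claudins was 0.22 in HS_SCR against 0.4% salt, -0.09 in HS_DT against HS_SCR and 0.14 in HS_DT against 0.4% salt. The same medians over all tested loci were 0.018, -0.0019 and 0.0056. The 3 comparisons share libraries pairwise, so they are not independent of each other.

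**Figure D1:**
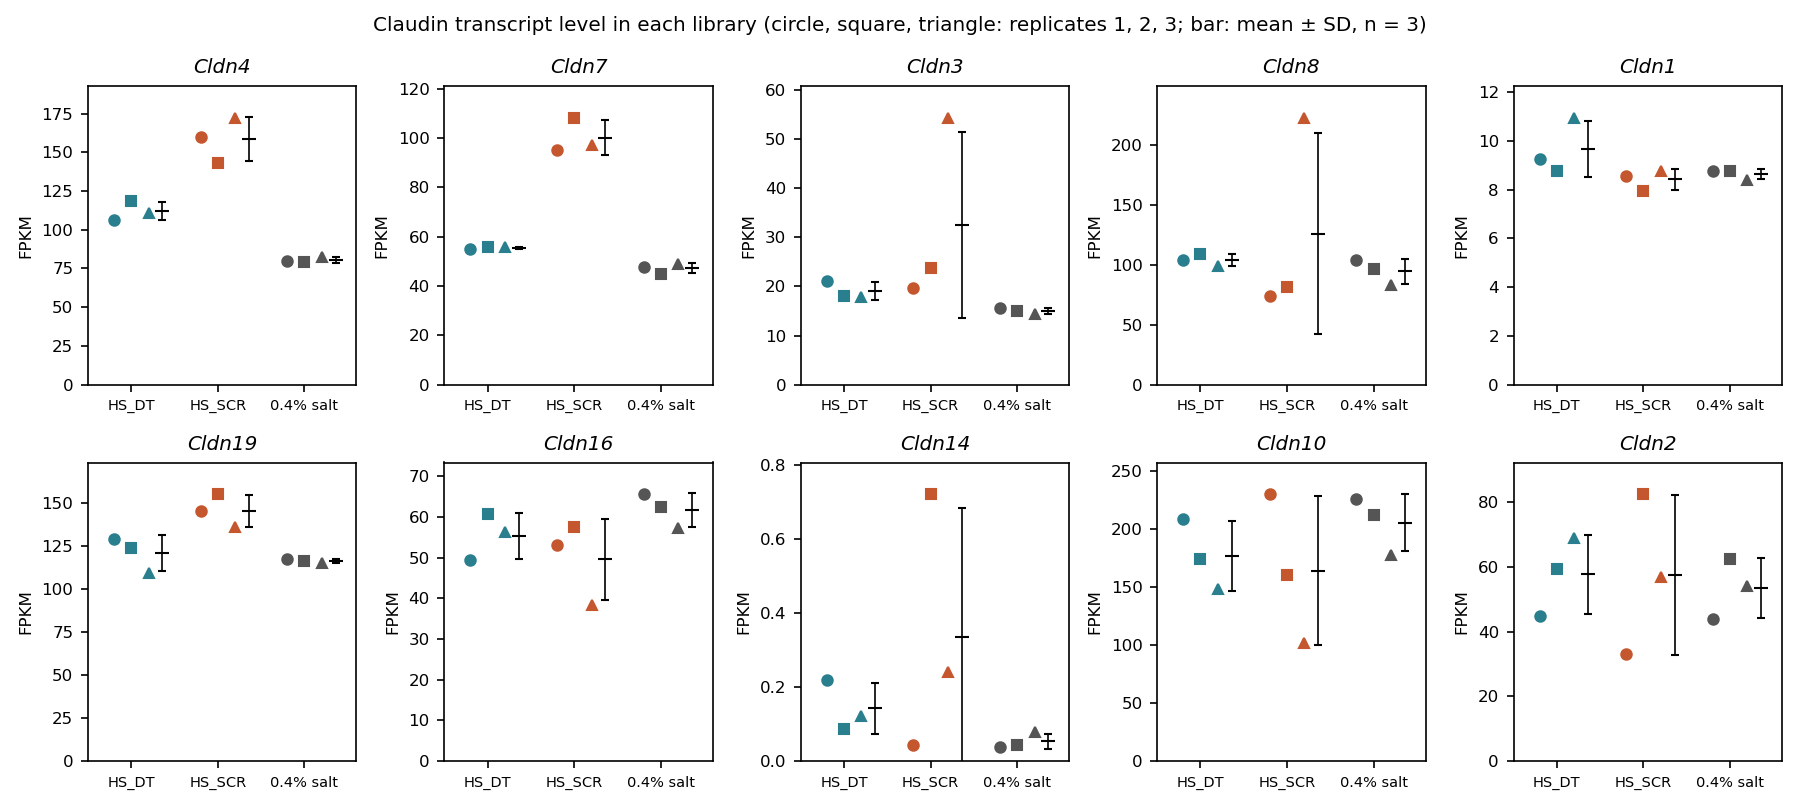
FPKM of the 10 claudins (vertical axes, linear, from 0) in HS_DT, HS_SCR and 0.4% salt, with circle, square and triangle for replicates 1, 2 and 3 and a bar for mean ± SD (n = 3); the lower part of the Cldn14 bar in HS_SCR is cut at 0. For Cldn4 and Cldn7 every HS_SCR library lies above every other library, whereas for Cldn3 and Cldn8 HS_SCR replicate 3 alone lies far above the rest.

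Cldn7 codes for a claudin of the distal nephron and collecting duct that is also placed along the basolateral membrane, and its locus lies at chr10:56321560-56323745 on build rn5, which all loci of the table use. Its level was 55.0, 55.7 and 55.8 FPKM in HS_DT, 95.2, 108 and 97.1 FPKM in HS_SCR and 47.6, 44.9 and 49.0 FPKM in 0.4% salt. The groups did not overlap in any of the 3 comparisons, and the 3 HS_DT libraries lay within 1 FPKM of each other. HS_SCR exceeded 0.4% salt by 1.07 ± 0.07 (log2 of FPKM + 1, ± SE), a ratio of means of 2.12, with a limma adjusted p of 0.00212, the second smallest p of the 14338 loci. HS_DT was lower than HS_SCR by a log2 difference of -0.84 ± 0.07, a ratio of means of 0.554, with a limma adjusted p of 0.0307, the smallest p of all loci. HS_DT minus 0.4% salt was 0.23 ± 0.07 with a limma adjusted p of 0.497. The exact two-sided permutation p was 0.1 in all 3 comparisons, the smallest that 3 against 3 rats allow.

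The size of the Cldn7 difference between HS_DT and HS_SCR varied little, and its call depended on single libraries. Within the lower rat number series the log2 difference was -0.86, and within the higher series it was -0.79. HS_SCR replicate 3 exceeded the 0.4% salt libraries, all of the same series, by 1.03. The limma adjusted p of HS_DT against HS_SCR was 0.0819, 0.0965 or 0.0594 without 0.4% salt replicate 1, 2 or 3, and 0.117 without HS_SCR replicate 2. It was 0.207, 0.220 or 0.188 without HS_DT replicate 1, 2 or 3. The call held without HS_SCR replicate 1 (adjusted p = 0.0121) and without HS_SCR replicate 3 (adjusted p = 0.0125), where 110 and 1332 loci were called lower. Across the 9 refits without 1 library the log2 difference ran from -0.87 to -0.78. The rise of Cldn7 in HS_SCR relative to 0.4% salt kept its call in all 9 refits, at 1.01 to 1.10.

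Cldn4 codes for a claudin of the collecting duct and thin limb junctions (chr12:26761463-26763280). It stood at 107, 119 and 111 FPKM in HS_DT, 160.2, 143 and 172 FPKM in HS_SCR and 79.7, 78.9 and 82.7 FPKM in 0.4% salt. The 3 groups again did not overlap, with HS_DT between the other groups. HS_SCR exceeded 0.4% salt by a log2 difference of 0.97 ± 0.09, a ratio of means of 1.97 with a limma adjusted p of 0.00564, and every refit that left out 1 library kept the call (0.91 to 1.04). HS_DT minus HS_SCR was -0.49 ± 0.09 with a limma adjusted p of 0.0644, which did not pass. Without HS_SCR replicate 3 that difference was -0.43 with an adjusted p of 0.0154. It also passed at a minimum mean of 5 FPKM (0.0478), with library weights (0.0283) and with the rat number series (0.0410). In the order given, those refits called 1332, 122, 874 and 296 loci lower in HS_DT, against 1 in the main fit. HS_DT minus 0.4% salt was 0.47 ± 0.09 with a limma adjusted p of 0.242, and it passed with library weights (0.00299), as did that of Cldn7 (0.0165). With library weights, 1179 loci passed as higher in that comparison, against 0 in the main fit. By rat number series, HS_DT minus HS_SCR was -0.43 in the lower and -0.63 in the higher series, and HS_SCR replicate 3 exceeded 0.4% salt by 1.09.

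Relative to Cldn4 of the same library, Cldn7 was lower in HS_DT than in both other groups. The ratio of Cldn7 to Cldn4 FPKM was 0.515, 0.469 and 0.502 in HS_DT, 0.594, 0.754 and 0.564 in HS_SCR and 0.597, 0.569 and 0.592 in 0.4% salt. This ratio was chosen after the values had been seen. HS_DT overlapped neither HS_SCR (log2 difference -0.35, exact permutation p = 0.1) nor 0.4% salt (log2 difference -0.24, exact permutation p = 0.1), and HS_SCR and 0.4% salt overlapped (exact permutation p = 0.8). Without HS_SCR replicate 2, whose ratio was 0.754, the log2 difference of HS_DT from HS_SCR was -0.23.

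Promoters are shown for the claudins that passed a test and that the RefSeq promoter table holds, since the GapmeRs were aimed at enzymes of cytosine methylation. Each is 300 bases of build GRCr8, from 250 before to 50 after the annotated gene start, 5′ to 3′ on the strand of the gene, with every CpG in capitals. Of the 10 claudins, 8 matched the table, and Cldn2 and Cldn4 did not. Cldn7 is at chr10:55188420-55188719 on the plus strand, and Cldn19 at chr5:138148325-138148624 on the plus strand.
Cldn7: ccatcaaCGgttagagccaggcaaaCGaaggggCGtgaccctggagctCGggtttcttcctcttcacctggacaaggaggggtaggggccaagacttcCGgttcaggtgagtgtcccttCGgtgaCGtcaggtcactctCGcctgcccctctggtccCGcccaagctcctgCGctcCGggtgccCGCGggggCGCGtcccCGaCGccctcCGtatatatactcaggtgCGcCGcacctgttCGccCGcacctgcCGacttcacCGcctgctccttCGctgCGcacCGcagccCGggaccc
Cldn19: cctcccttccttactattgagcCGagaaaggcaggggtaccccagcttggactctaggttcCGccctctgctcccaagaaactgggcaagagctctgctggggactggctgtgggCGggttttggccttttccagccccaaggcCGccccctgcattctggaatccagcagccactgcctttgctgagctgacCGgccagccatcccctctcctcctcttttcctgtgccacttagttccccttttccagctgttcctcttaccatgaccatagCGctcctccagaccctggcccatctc
The Cldn7 window holds 28 CpG, more than 87.3% of the 33469 promoters in the table, whose median is 7. The Cldn19 window holds 6 CpG, and the other matched windows hold 17 (Cldn1), 16 (Cldn3), 7 (Cldn16), 6 (Cldn14), 5 (Cldn10) and 4 (Cldn8). The E-box CAGGTG, read on both strands, occurs 5 times in the Cldn7 window, once in those of Cldn3 and Cldn14 and in none of the other 5. It is present in 18.8% of all promoters, and 4 of the 33469 hold 5 or more. The GC box GGGCGG, on both strands, occurs 3 times in the Cldn19 window, 2 times in that of Cldn1 and once in those of Cldn3 and Cldn7. It is present in 33.1% of promoters, and 8.97% hold 3 or more. The TATA box TATAAA (14.2% of promoters) and the grainyhead motif AACCGGTT (0.173% of promoters) were in none of the 8 windows on either strand, and no matches of the 4 motifs overlapped. Methylation of these windows was not analysed here, and a match of letters is a description of the window.

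Cldn3, a barrier-forming claudin of the distal nephron, was high in 1 HS_SCR library. It stood at 21.1, 18.2 and 17.9 FPKM in HS_DT, 19.6, 23.8 and 54.3 FPKM in HS_SCR and 15.7, 15.01 and 14.3 FPKM in 0.4% salt. All HS_SCR and HS_DT libraries lay above all 0.4% salt libraries, and HS_DT and HS_SCR overlapped. The log2 difference of HS_SCR from 0.4% salt was 0.93 ± 0.31 with a limma adjusted p of 0.0810, which did not pass. Without HS_SCR replicate 3 it was 0.50 with an adjusted p of 0.0108, and without HS_SCR replicate 1 it was 1.21 with an adjusted p of 0.0393. It also passed with library weights (0.62, adjusted p = 0.0272) and with the rat number series (1.32, adjusted p = 0.0437). In the order given, those refits called 2935, 994, 2294 and 843 loci higher in HS_SCR, against 1175 in the main fit. HS_DT minus HS_SCR was -0.61 ± 0.31 with a limma adjusted p of 0.329. The Cldn3 locus of the table spans chromosome 12 from 23436072 to 24054629 on build rn5 and overlaps 16 other loci, of which 6 were tested, so fragments of other genes within its value cannot be told apart, and none of the other 9 claudins overlaps another locus.

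Cldn8, the partner of claudin-4 in collecting duct junctions (chr11:32145246-32148225), did not pass in any comparison. It stood at 104, 109 and 98.8 FPKM in HS_DT, 73.8, 81.3 and 223 FPKM in HS_SCR and 104, 96.5 and 83.5 FPKM in 0.4% salt. HS_SCR replicates 1 and 2 were the lowest of the 9 libraries and HS_SCR replicate 3 the highest. HS_DT minus HS_SCR was -0.09 ± 0.36 (limma adjusted p = 0.919), and without HS_SCR replicate 3 it was 0.42 with an adjusted p of 0.0332, the opposite direction. Without that library 16% of all tested loci passed in this comparison. HS_SCR minus 0.4% salt was 0.22 ± 0.36 with a limma adjusted p of 0.695, and -0.28 with an adjusted p of 0.0640 without that library. By rat number series HS_DT minus HS_SCR was 0.45 in the lower and -1.17 in the higher series.

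Cldn1 was low and even in all groups. It stood at 9.28, 8.76 and 10.9 FPKM in HS_DT, 8.57, 7.96 and 8.75 FPKM in HS_SCR and 8.78, 8.77 and 8.41 FPKM in 0.4% salt. HS_DT lay just above HS_SCR with no overlap, by a log2 difference of 0.17 ± 0.10 with a limma adjusted p of 0.359. HS_SCR minus 0.4% salt was -0.04, with a 95% interval from -0.25 to 0.18. Cldn1 and Cldn16 lie on rn5 chromosome 11 near each other, at 82888893 to 82904046 and 83013466 to 83039939.

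**Figure D2:**
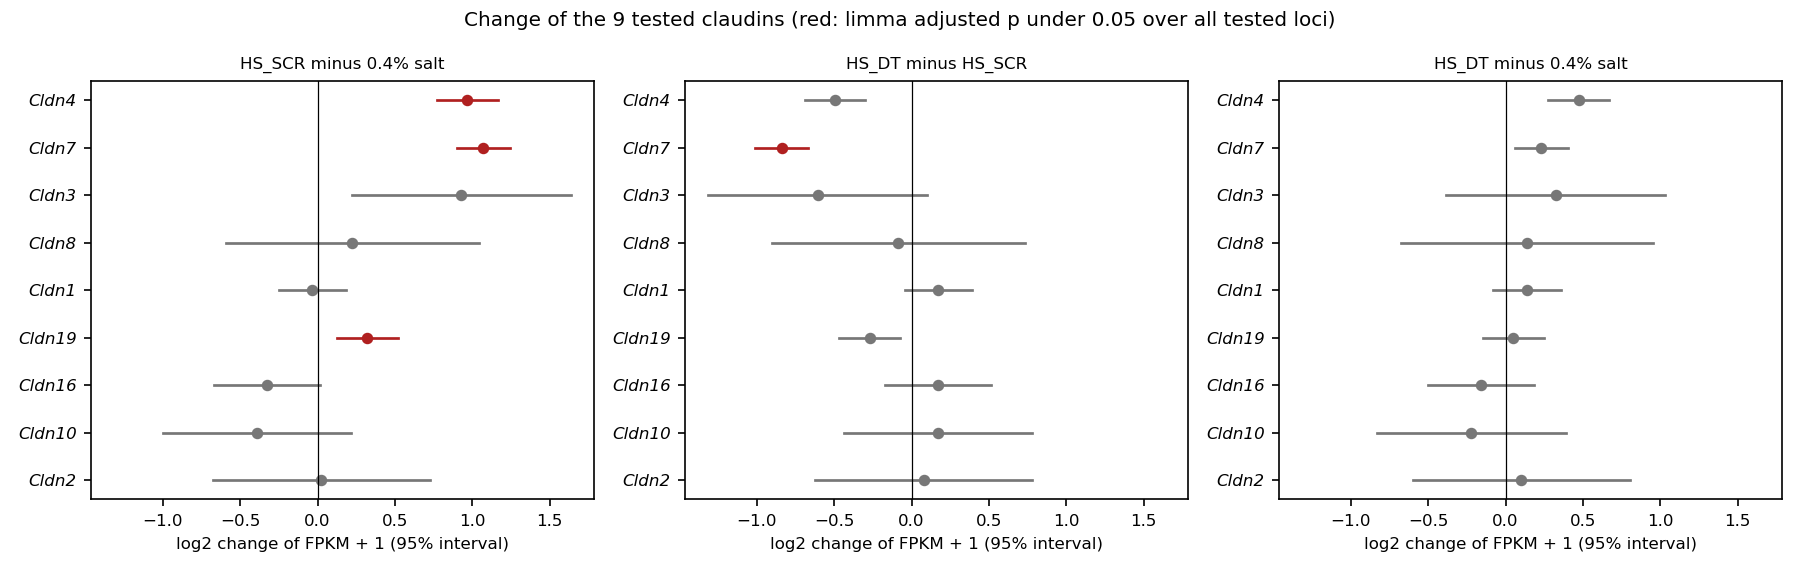
Log2 change of FPKM + 1 (horizontal axis) of the 9 tested claudins with 95% intervals from limma, one panel for each of the 3 comparisons of groups, with red marking an adjusted p under 0.05 over all 14338 loci. Cldn4, Cldn7 and Cldn19 are red for HS_SCR minus 0.4% salt, Cldn7 alone for HS_DT minus HS_SCR and none for HS_DT minus 0.4% salt, and Cldn3, Cldn8, Cldn10 and Cldn2 have wide intervals.

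Of the thick ascending limb claudins, Cldn19 passed narrowly and Cldn16 did not. Cldn19 (chr5:142111239-142120936) stood at 129, 124 and 109 FPKM in HS_DT, 146, 155 and 136 FPKM in HS_SCR and 118, 116 and 115 FPKM in 0.4% salt. All HS_SCR libraries lay above all libraries of both other groups, which overlapped each other. The log2 difference of HS_SCR from 0.4% salt was 0.32 ± 0.09, a ratio of means of 1.25 with a limma adjusted p of 0.0452. HS_DT minus HS_SCR was -0.27 ± 0.09 with a limma adjusted p of 0.160, and it passed without HS_SCR replicate 3 (-0.32, adjusted p = 0.0392) and with library weights (adjusted p = 0.0482). Those refits called 1332 and 874 loci lower in HS_DT. The first call was lost without any of 7 libraries, with adjusted p of 0.120, 0.133 and 0.107 without 0.4% salt replicates 1, 2 and 3, 0.0809 and 0.125 without HS_SCR replicates 1 and 2, and 0.0601 and 0.0791 without HS_DT replicates 1 and 2. It held without HS_SCR replicate 3 (0.0123), where 36.2% of all tested loci passed, and without HS_DT replicate 3 (0.0420). HS_SCR replicate 3 exceeded the 0.4% salt libraries of its own series by 0.23.

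Cldn16 stood at 49.4, 60.6 and 56.3 FPKM in HS_DT, 53.0, 57.5 and 38.4 FPKM in HS_SCR and 65.5, 62.5 and 57.3 FPKM in 0.4% salt. The groups overlapped, and HS_SCR replicate 3 was the lowest library. HS_SCR minus 0.4% salt was -0.33 ± 0.15 with a limma adjusted p of 0.170, and -0.16 without HS_SCR replicate 3. HS_DT minus HS_SCR was 0.17 with a limma adjusted p of 0.564.

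The ratio of Cldn16 to Cldn19 FPKM within a library was 0.382, 0.489 and 0.515 in HS_DT, 0.364, 0.370 and 0.282 in HS_SCR and 0.558, 0.536 and 0.498 in 0.4% salt. All HS_SCR ratios lay below all ratios of the other groups, with means of 0.462 ± 0.0707 in HS_DT, 0.339 ± 0.0492 in HS_SCR and 0.531 ± 0.0304 in 0.4% salt (SD, n = 3 each). The ratio was chosen after the values had been seen. The log2 difference was -0.66 for HS_SCR minus 0.4% salt and 0.45 for HS_DT minus HS_SCR, each at the smallest exact permutation p of 0.1, and -0.21 for HS_DT minus 0.4% salt (exact permutation p = 0.2), which was -0.079 without HS_DT replicate 1.

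Cldn14 (chr11:37721800-37731973), the inhibitor of the claudin-16 path, was at or near the floor of the table in every library. It stood at 0.221, 0.0856 and 0.121 FPKM in HS_DT, 0.0434, 0.722 and 0.241 FPKM in HS_SCR and 0.0392, 0.0425 and 0.0774 FPKM in 0.4% salt. HS_SCR replicate 2 was the highest library and HS_SCR replicate 1 was within the range of 0.4% salt. With all means below 1 FPKM and the depth unknown, no change is called for it.

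Cldn10 (chr15:107450002-107539174), the most abundant claudin by mean FPKM in each group, stood at 208, 174 and 148 FPKM in HS_DT, 229.9, 161 and 102 FPKM in HS_SCR and 226, 212 and 178 FPKM in 0.4% salt. The groups overlapped, and HS_SCR held both the highest and the lowest library. HS_SCR minus 0.4% salt was -0.39 ± 0.27 with a limma adjusted p of 0.341, and -0.09 without HS_SCR replicate 3. HS_DT minus HS_SCR was 0.17 with a 95% interval from -0.44 to 0.78. The value is for the whole locus, so its anion and cation splice forms cannot be told apart.

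Cldn2, which codes for a cation and water pore, is placed by the table at chr3:53461937-53472536, between Rbm41 and Ripply1. That chromosome was not checked against another build. It stood at 44.8, 59.2 and 68.8 FPKM in HS_DT, 32.9, 82.3 and 56.9 FPKM in HS_SCR and 43.8, 62.3 and 54.0 FPKM in 0.4% salt. The groups overlapped throughout, with the widest spread in HS_SCR. HS_SCR minus 0.4% salt was 0.02, with a 95% interval from -0.68 to 0.72, and HS_DT minus HS_SCR was 0.08, with a 95% interval from -0.62 to 0.78. The 17 proximal tubule markers tested, Cldn2 not among them, had a median log2 difference of -2.80 for HS_SCR minus 0.4% salt, with 6 lower. For HS_DT minus HS_SCR their median was 1.77, with 0 passing. Their mean log2(FPKM + 1) was 4.25, 4.59 and 6.56 in HS_DT replicates 1, 2 and 3. Only the last of these lay within the range of 0.4% salt, 5.60 to 7.08. Over all tested loci, 699 of 14338 were lower in HS_SCR than in 0.4% salt. The tubule segment that the Cldn2 values came from was not tested.

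Ordered by mean FPKM, which is a level per length of transcript, Cldn10 came first in every group and Cldn14 last. In HS_DT the order was Cldn10, Cldn19, Cldn4, Cldn8, Cldn2, Cldn7, Cldn16, Cldn3, Cldn1 and Cldn14. There Cldn19, Cldn4 and Cldn8 overlapped their neighbours, as did Cldn2, Cldn7 and Cldn16. In HS_SCR the order was Cldn10, Cldn4, Cldn19, Cldn8, Cldn7, Cldn2, Cldn16, Cldn3, Cldn1 and Cldn14. All neighbours overlapped there except Cldn7 with Cldn2, Cldn3 with Cldn1 and Cldn1 with Cldn14. In 0.4% salt the order was Cldn10, Cldn19, Cldn8, Cldn4, Cldn16, Cldn2, Cldn7, Cldn3, Cldn1 and Cldn14, and only Cldn16, Cldn2 and Cldn7 overlapped their neighbours. Cldn4 made up a mean of 15.8% of the summed FPKM of the 10 claudins in HS_DT, 18.8% in HS_SCR and 11.8% in 0.4% salt. Cldn7 made up 7.81% in HS_DT, 11.9% in HS_SCR and 6.92% in 0.4% salt, and Cldn10 made up 24.8%, 19.7% and 30.0% in the same groups. The claudin sum was 677 to 728 FPKM in HS_DT, 819 to 889 FPKM in HS_SCR and 643 to 709 FPKM in 0.4% salt. As a percentage of the sum of all FPKM, it was 0.0949, 0.0879 and 0.124 in HS_SCR replicates 1, 2 and 3. In 0.4% salt that percentage ran from 0.0921 to 0.0938. HS_SCR replicate 2 was the lowest of the 9 libraries by this share and HS_SCR replicate 3 the highest, so HS_SCR overlapped both other groups.

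Across the 9 libraries, log2(FPKM + 1) of Cldn4 and Cldn7 had a Pearson r of 0.92, and Cldn7 and Cldn19 an r of 0.89. Cldn3 and Cldn16 had an r of -0.90, and Cldn16 and Cldn19 an r of -0.39, among 36 pairs. These describe 9 points that share 3 groups and a library far from the rest. The genes outside the set with the highest r to Cldn7 were RGD1565183 and Rps28 (0.99 each) and Ip6k2 (0.99), and those for Cldn4 were Plp2 (0.99), Bbc3 (0.98) and Ctsb (0.98). For Cldn3 they were Spryd3 (0.99), Slc35g1 (0.98) and Krt19, a keratin of duct epithelia (0.98). Cldn3 and Krt19 were both highest in HS_SCR replicate 3, at 54.3 and 111 FPKM. For Cldn10 they were Ndufs3 (0.99), Rdh14 (0.99) and Rhcg, an ammonia channel of the collecting duct (0.99).

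The other claudins that were tested averaged from 1.25 (Cldn9) to 18.0 FPKM (Cldn5) over the 9 libraries, against 8.91 FPKM for Cldn1. Of 15 listed, 12 were in the table and 8 were tested. In HS_SCR against 0.4% salt 7 of the 8 had higher mean FPKM and 1 passed, where 13.1% of all tested loci passed. That was Cldn9, at 1.92 FPKM in HS_SCR and 0.797 FPKM in 0.4% salt, with a log2 difference of 0.68 ± 0.18 and a limma adjusted p of 0.0447. Its mean over the 9 libraries was 1.25 FPKM. It reached the filter of 1 FPKM only through HS_SCR, the group where it was high, so its call is given as a description. The call was lost without any 0.4% salt replicate (0.131, 0.131 and 0.0834 without replicates 1, 2 and 3), without HS_SCR replicate 2 (0.114), and without HS_DT replicates 1, 2 or 3 (0.0622, 0.0669 and 0.0633). The most abundant of them, endothelial Cldn5, averaged 15.8 FPKM in HS_DT, 21.5 FPKM in HS_SCR and 16.6 FPKM in 0.4% salt. Cldn15 averaged 15.5 FPKM in HS_DT, 15.3 FPKM in HS_SCR and 13.8 FPKM in 0.4% salt. None of the 8 passed in HS_DT against HS_SCR (median log2 difference -0.25) or HS_DT against 0.4% salt (0.11).

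The tight junction partners (scaffolds, adhesion molecules and regulators) had a median log2 difference of 0.02 in HS_SCR against 0.4% salt, with members on both sides. Of 26 listed symbols, Mpp5 and Pals1 being names of the same gene, 23 were in the table (Mpp5 but not Pals1) and tested. In that comparison 3 were higher, 1 lower and 19 did not pass. Over all tested loci, 8.2% passed as higher and 13.1% passed in either direction. Ybx3, a factor that binds the scaffold ZO-1, averaged 168 FPKM in HS_SCR and 84.9 FPKM in 0.4% salt (log2 difference 0.97 ± 0.13, limma adjusted p = 0.00690). F11r, the junctional adhesion molecule JAM-A, averaged 108 FPKM in HS_SCR and 73.4 FPKM in 0.4% salt (0.54 ± 0.10, limma adjusted p = 0.0134). Lsr, the angulin of tricellular junctions, averaged 59.1 FPKM in HS_SCR and 40.8 FPKM in 0.4% salt (0.52 ± 0.09, limma adjusted p = 0.0134). Cgnl1, a cingulin relative that links junctions to the cytoskeleton, averaged 144 FPKM in HS_SCR and 223 FPKM in 0.4% salt (-0.62 ± 0.12, limma adjusted p = 0.0168). The calls of F11r, Lsr and Cgnl1 were lost without 0.4% salt replicate 1 (0.0505, 0.0546 and 0.0680), those of F11r and Cgnl1 without 0.4% salt replicate 2 (0.0562 and 0.0753) and that of Cgnl1 without HS_SCR replicate 2 (0.0536). In HS_DT against HS_SCR none of the 23 passed. F11r (-0.45, limma adjusted p = 0.0779) and Ybx3 (-0.59, limma adjusted p = 0.0797) had the smallest p there, and in HS_DT against 0.4% salt, where none passed either, Cgnl1 (-0.35, limma adjusted p = 0.529) and Ybx3 (0.38, limma adjusted p = 0.537) did. Without HS_SCR replicate 3, 13 partners passed in HS_SCR against 0.4% salt, where 36.2% of all tested loci did, and 7 passed in HS_DT against HS_SCR, where 16% of all tested loci did.

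**Figure D3:**
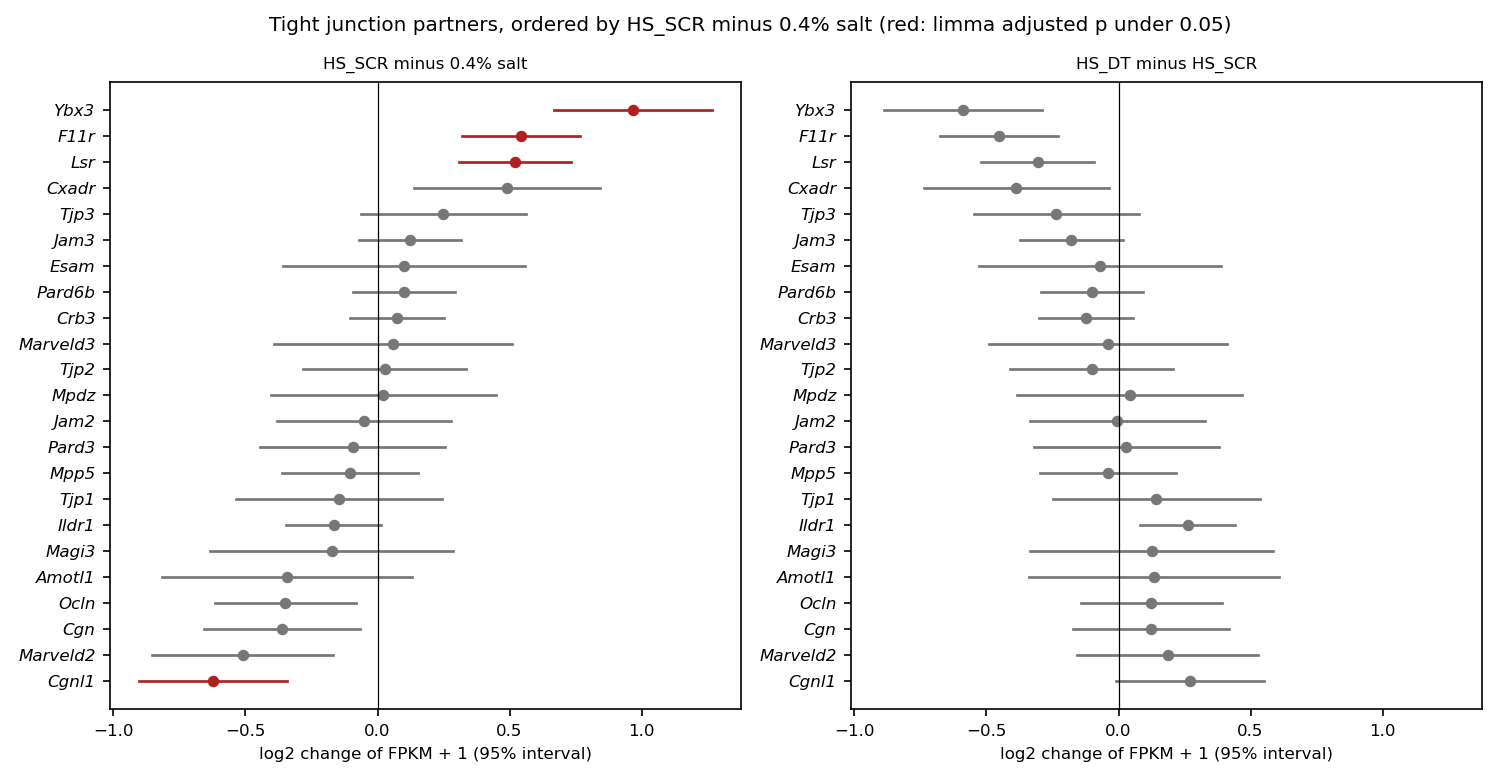
Log2 change of FPKM + 1 with 95% intervals from limma for the 23 tight junction partners, in HS_SCR minus 0.4% salt and HS_DT minus HS_SCR, which share the HS_SCR libraries. Ybx3, F11r and Lsr lie to the right and Cgnl1 to the left in HS_SCR minus 0.4% salt, and no gene passes in HS_DT minus HS_SCR.

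Markers of tubule segments and other cell types are given beside the claudins. In bulk tissue, fewer cells of a type and less RNA per cell cannot be told apart. Of 12 principal cell markers, all tested, 2 were higher in HS_SCR than in 0.4% salt (Krt8 and Krt18, keratins) and 10 did not pass. Over all tested loci, 8.2% passed as higher. All 12 had higher means in HS_SCR, and their median log2 difference was 0.48. Their mean log2(FPKM + 1) per library ran from 5.84 to 6.14 in HS_DT, 6.11 to 6.44 in HS_SCR and 5.56 to 6.07 in 0.4% salt, and their summed level from 1109 to 1737, 1568 to 2111 and 906 to 1641 FPKM. Aqp2, the vasopressin-regulated water channel of these cells, averaged 597 FPKM in HS_DT, 786 FPKM in HS_SCR and 549 FPKM in 0.4% salt, with a limma adjusted p of 0.293 for HS_SCR minus 0.4% salt. The part of principal cell RNA in the Cldn4 and Cldn7 values was not tested.

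Of 12 thick ascending limb markers, without claudins, 6 were lower in HS_SCR than in 0.4% salt and none was higher, with a median log2 difference of -0.99. Over all tested loci, 699 of 14338 passed as lower. Slc12a1, the sodium-potassium-chloride cotransporter, averaged 469 FPKM in HS_SCR and 880.1 FPKM in 0.4% salt, with a log2 difference of -0.90 ± 0.11 and a limma adjusted p of 0.00638. The markers' mean log2(FPKM + 1) ran from 5.84 to 6.07 in HS_DT, 4.70 to 5.55 in HS_SCR and 6.04 to 6.53 in 0.4% salt, with summed levels of 2418 to 3359, 1159 to 3059 and 2713 to 4322 FPKM. HS_SCR had the lowest limb marker level and the highest Cldn19 level. The part of limb RNA in the Cldn16 and Cldn19 values was not tested.

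The other marker lists are given for the same comparison, HS_SCR minus 0.4% salt. Thin limb markers had 1 higher, 1 lower and 8 that did not pass (median log2 difference -0.10), and intercalated cell markers had 8 that did not pass (-0.13). The list named after parietal epithelial cells had 4 of 7 higher (Pax8, Cd24, Krt7 and Akap12, list median 0.47), and endothelial markers had 2 of 9 higher (0.07). Over all tested loci, 8.2% passed as higher and 699 of 14338 as lower. Whether parietal cells were present in this tissue, or other cells gave these transcripts, was not tested. In HS_DT against HS_SCR and HS_DT against 0.4% salt, 0 members of the 7 marker lists passed. In HS_DT against HS_SCR the medians were -0.27 for principal cell, 0.59 for thick ascending limb and -0.39 for parietal epithelial cell markers. No list had a marker at 0 in all 9 libraries. The proximal tubule markers' summed level ran from 1318 to 4531 FPKM in HS_DT, 235 to 1975 FPKM in HS_SCR and 2943 to 6864 FPKM in 0.4% salt. With their mean log2(FPKM + 1) as a covariate, neither Cldn4 (0.85, limma adjusted p = 0.127) nor Cldn7 (1.14, limma adjusted p = 0.0919) passed in HS_SCR against 0.4% salt. That mean ran from 2.48 to 4.67 in HS_SCR and from 5.60 to 7.08 in 0.4% salt, without overlap. With it, 0 of all tested loci passed, so this fit cannot tell the marker level from the group.

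**Figure D4:**
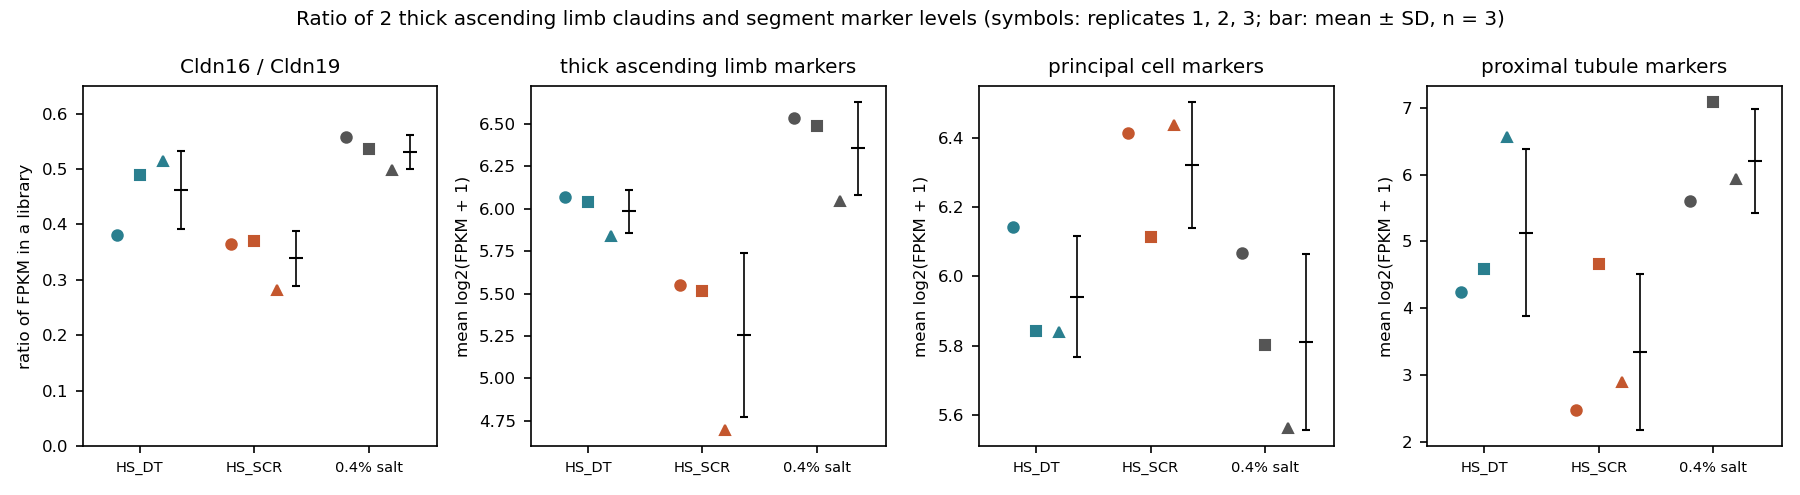
The Cldn16 to Cldn19 FPKM ratio, and the mean log2(FPKM + 1) of the thick ascending limb, principal cell and proximal tubule markers, in HS_DT, HS_SCR and 0.4% salt, with symbols for replicates 1, 2 and 3 and bars for mean ± SD (n = 3); the 3 marker axes do not start at 0. HS_SCR has the lowest ratio, the lowest thick ascending limb level and the highest principal cell mean.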

How the data were processed

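Outer medullary RNA of 9 rats was sequenced, 1 library per rat and 3 rats per group, as the labels give them. The authors deposited FPKM per locus on build rn5, made with Trim Galore 0.2.5 and Cufflinks 2.2.1 among the tools, per the submitters' processing notes. Aligner, annotation, use of strand and library depth are not given in the sources used, so there is no counting interval. A repeated column, equal at all 30315 loci, makes 1 column not used.

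Values were analysed as log2(FPKM + 1), a scale that understates changes of low genes, at 14338 loci whose mean reached 1 FPKM. Tests were two-sided in limma 3.58.1 (R 4.3.3) with a variance trend, in 1 fit of all 3 groups (6 residual degrees of freedom), and adjusted by Benjamini-Hochberg over all tested loci at 0.05. The script was tested on simulated data. Single values were also compared by an exact permutation test of 3 against 3.

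The claudins, the gene lists and the tests were chosen with earlier results of these data known. All 10 claudins are named, other claudins where called or among the 2 with the highest mean, partners where called (up to 4) or the 2 with the smallest p, and up to 3 genes of most similar pattern. Cell markers, Dnmt3a, Tet3 and values chosen after being seen are named outside that rule. Promoters come from the RefSeq table of GRCr8. Alternatives were pseudocounts, filters, rescaling, quantile normalization, a 2-group fit, library weights, a replicate block, the rat number series, the proximal tubule marker level as a covariate and leaving out each library.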

Additional observations from a re-analysis of the deposited data

How the results depend on the processing

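Depth is unknown, so low values such as those of Cldn14 carry no interval. Over all claudins, comparisons and alternatives, 502 values stayed on their side of the threshold (21 of them, none called, with the other sign), 25 lost a call, 12 gained one and 1 reversed. Cldn14 was left out. The reversal was Cldn8 in HS_DT minus HS_SCR without HS_SCR replicate 3, at 0.42, and leaving out 1 library gave -0.37 to 0.42. Causes were not tested.

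The count of changed loci in HS_SCR against 0.4% salt, 1874, was 4019 with library weights, 466 in the fit of the 2 groups compared, and 0 with the proximal tubule covariate. It ran from 347 (without 0.4% salt replicate 2) to 5188 (without HS_SCR replicate 3), with 448 and 958 without 0.4% salt replicates 1 and 3, 909 without HS_SCR replicate 2 and 1075 without HS_DT replicate 2. The count in HS_DT against HS_SCR, 1, was 3 with no filter, 154 at a minimum mean of 5 FPKM, 0 with quantile normalization, 1496 with library weights, 0 with the replicate block, 422 with the rat number series and 0 with the covariate. Leaving out 1 library gave 0 to 2300, with 180 without HS_SCR replicate 1, 2300 without HS_SCR replicate 3, and 1, not Cldn7, without 0.4% salt replicate 3. The fit of the 2 groups also gave 1 locus that was not Cldn7. The count in HS_DT against 0.4% salt, 0, was 2 at a minimum mean of 5 FPKM, 1805 with library weights, 1 in the fit of the 2 groups, and 0 to 6 with 1 library left out (1 without 0.4% salt replicate 3, 6 without HS_SCR replicate 3).

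Cldn4 and Cldn7 in HS_SCR minus 0.4% salt lost their call with the covariate (0.85 and 1.14), with which 0 of all loci passed, and in no other alternative. Cldn19 lost it with no filter (0.32), quantile normalization (0.15), the fit of the 2 groups (0.32), the rat number series (0.20) and the covariate (0.26), and ran from 0.27 to 0.37 with 1 library left out. Cldn7 in HS_DT minus HS_SCR lost it with quantile normalization (-0.73), the fit of the 2 groups (-0.84), the covariate (-0.88) and the replicate block (-0.84, limma adjusted p = 0.0821), and ran from -0.87 to -0.78 with 1 library left out. The labels do not pair rats by replicate number, and residuals of same-numbered libraries correlated above 0.1 in 5 of 9 pairs, so the block is given here only.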
